A study of Mus musculus with 4 samples.

Results

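The genes described here are the transcription factors that direct the photoreceptor fate in the mouse retina, chosen by name: Otx2, Crx, Nrl, Nr2e3, Thrb, Rxrg, Prdm1 (also listed under its older name Blimp1), Rorb and Mef2d. The 10 listed names stand for 9 genes, and all 9 were found among the 18471 genes of the deposited table. By known role they were divided into 2 rod factors (Nrl, Nr2e3), 2 cone factors (Thrb, Rxrg) and 5 factors that serve both photoreceptor classes. RNA was sequenced from the retina of single genotyped mouse embryos at embryonic day 19, shortly before birth. The first group was wild-type (2 embryos). The second was homozygous (Foxn3-/-, labelled Foxn3KO, 2 embryos) for an allele of the strain C57BL/6NJ-Foxn3em1(IMPC)Bay/Mmnc that lacks exon 3 of the forkhead factor gene Foxn3. The labels name no Cre line or tissue restriction for the deletion, and do not say whether the embryos were littermates. Whole retina was used, so each value is an average over all retinal cells.

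Photoreceptors arise from dividing retinal progenitors. Otx2 commits a newly born precursor to the photoreceptor lineage and switches on Crx, and Prdm1 then keeps the precursor from turning into a bipolar cell. Rorb acts upstream of Nrl, and Nrl with its target Nr2e3 directs the precursor to the rod fate and represses cone genes. In cones, the thyroid hormone receptor Thrb and its retinoid partner receptor Rxrg set the choice of cone opsin. Mef2d works with Crx on genes of the maturing photoreceptor. In the mouse, cones are born before birth, while rod birth continues after it.

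Total counts were between 22543531 and 29360129 per library. Foxn3 itself was read 2421 and 2712 times under the wild-type label and 4181 and 3219 times under the Foxn3KO label. Gene-level counts do not resolve exon 3, and since the targeted gene was higher under the knockout label, each direction below rests on the labels. Wild-type replicate 1 stood apart from the other 3 libraries in sex-linked RNA, with 83073 counts of Xist against 9 to 19. It had 0 counts of Ddx3y, against 1780 to 2317 in the others. By these genes, sex was mixed in the wild-type group and not in the Foxn3KO group. Calls of named genes and list counts that move by over 1.5 times without wild-type replicate 1 are therefore given both ways. Markers of the retina were present: the 10 progenitor markers summed to between 6784 and 7442 CPM (counts scaled to library size) and the 10 ganglion cell markers to between 1992 and 2158 CPM in every library. Of the lists of other tissues, the 9 measured lens genes summed to 3.71 and 72.3 CPM in wild-type replicates 1 and 2 and to 248.6 and 246.3 CPM in the Foxn3KO libraries. The 12 measured pigment epithelium genes summed to 96.1 and 125.8 CPM in wild-type and to 77.5 and 79.5 CPM in Foxn3KO. Whether these differences in tissue content bear on the results below was not tested.

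Per unit of gene length, the factors covered a wide range of levels, and their order was almost the same in every library. On the scale of deposited FPKM (read fragments scaled to gene length and library size), Otx2 was highest with values from 106.0 to 108.8 over the 4 libraries. Crx followed with 73.9 to 78.5 FPKM, Rorb with 48.6 to 52.8 FPKM and Prdm1 with 33.3 to 35.5 FPKM. These ranges did not overlap, so 4 of the 5 shared factors led the order. Nr2e3 (22.4 to 26.3 FPKM) and Mef2d (22.1 to 23.8 FPKM) overlapped in range, as did Nrl (13.6 to 17.0 FPKM) and Rxrg (13.4 to 15.2 FPKM). Thrb was lowest with 8.40 to 10.3 FPKM. Even this lowest mean level, 9.08 FPKM, was above that of 66.5% of the genes in the table, and the Otx2 mean was above that of 98.5%.

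**Figure D1:**
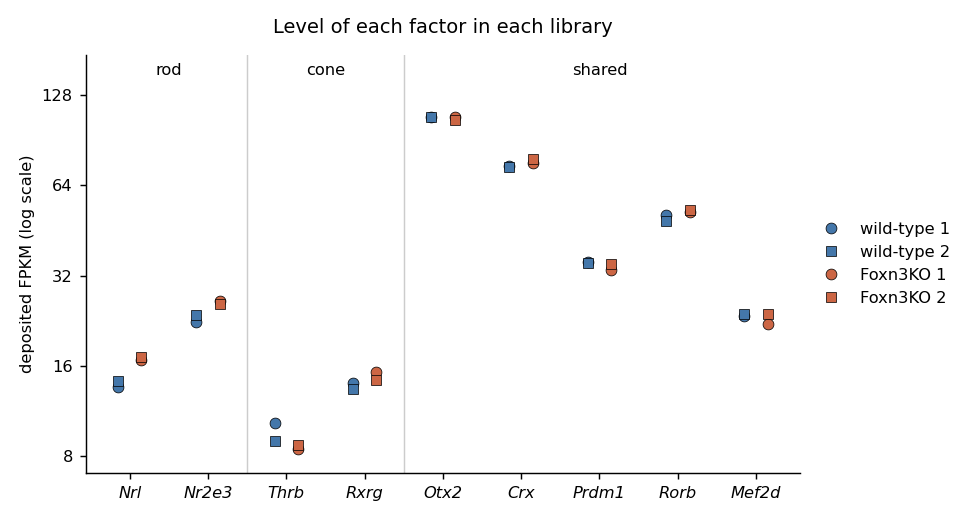
Deposited FPKM on a log scale for each of the 9 factors (x axis, by class) in each library: blue for wild-type, orange for Foxn3KO, circles for replicate 1 and squares for replicate 2. Nrl and Nr2e3 lie higher in both Foxn3KO libraries, while Otx2 stays between 106.0 and 108.8 FPKM.

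Between the genotypes, only the rod factors Nrl and Nr2e3 passed the test, both higher in the Foxn3KO retinas. The cone factor Thrb changed about as much as Nr2e3 in the other direction, with log2 fold changes of -0.18 and 0.17. These 2 genes fell on either side of the threshold (edgeR adjusted p = 0.0550 and 0.0210). A gene is called here when its adjusted p is under 0.05 in edgeR's quasi-likelihood test over all 17300 tested genes. All 9 factors were tested, and each had at least 739 counts in every library. Of the 9, 2 were called, both higher, a share close to the background of 21.9% called over all genes (12.3% higher, 9.66% lower). The median log2 fold change of the 9 factors was 0.06, beside -0.00470 over all tested genes. With DESeq2 only Nrl was called, 1 of 9, beside 14.1% of all genes. The CPM values of the groups did not overlap for 8 of the 9 factors, the exception being Mef2d. With 2 libraries a group this is common, and 60.4% of all tested genes showed it. An exact permutation test of a single gene cannot go below a two-sided p of 0.333 at this size.

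Nrl, the leucine zipper factor without which rod precursors become cone-like cells, had 77.8 and 80.9 CPM in the wild-type libraries and 95.2 and 97.2 CPM in the Foxn3KO libraries. Both Foxn3KO values lay above both wild-type values. The groups had means of 79.4 ± 2.20 and 96.2 ± 1.37 CPM (SD, n = 2 each). Nrl rose 1.21-fold, a log2 fold change of 0.28 (SE 0.050, edgeR adjusted p = 0.000549). It was called in every fit that was run, those without any single library included, where the log2 fold change ranged from 0.249 to 0.305. The authors' deposited table lists Nrl at a log2 change of 0.27 (adjusted p = 0.00068).

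Nr2e3, the nuclear receptor that acts with Nrl to silence cone genes in rods, had 75.9 and 79.6 CPM in wild-type and 88.8 and 86.6 CPM in Foxn3KO. Again both Foxn3KO libraries were the higher ones. Nr2e3 rose 1.13-fold, a log2 fold change of 0.17 (SE 0.051, edgeR adjusted p = 0.0210). This call is less secure than that of Nrl. It was lost without Foxn3KO replicate 1 (log2 fold change 0.15, edgeR adjusted p = 0.219), without Foxn3KO replicate 2 (0.19, edgeR adjusted p = 0.0940) and in DESeq2 (adjusted p = 0.0709), with a similar size of change in each. The authors' deposited table lists Nr2e3 at 0.17 (adjusted p = 0.0731). In RNA from whole retina, a change in the number of rod precursors cannot be told apart from a change in the RNA of each cell.

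The promoters of these factors and of their targets can carry the sites they bind. Promoters from RefSeq (GRCm38.p6, 250 bases before to 50 after a transcript start) were matched by symbol and found for all 9 factors, with 15 starts in all. The counts were made on another build, mm39 per the submitters' processing notes, and no position below was compared with them. Letters searched on both strands were TAATCC, the core bound by Otx2 and Crx, its variant TAAGCC, and TGCTGA, the half-site of Nrl. The letters of the 3 motifs do not overlap in the promoters shown. They are those of the called rod factors Nrl and Nr2e3, of the shared factor Crx, and of Sag, the rod arrestin gene that rose most among the rod targets. Capitals mark the matches, given 5′ to 3′ on the strand of the gene, so a match on the other strand reads GGATTA or GGCTTA.

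Nrl, chr14:55524203-55524502, minus strand: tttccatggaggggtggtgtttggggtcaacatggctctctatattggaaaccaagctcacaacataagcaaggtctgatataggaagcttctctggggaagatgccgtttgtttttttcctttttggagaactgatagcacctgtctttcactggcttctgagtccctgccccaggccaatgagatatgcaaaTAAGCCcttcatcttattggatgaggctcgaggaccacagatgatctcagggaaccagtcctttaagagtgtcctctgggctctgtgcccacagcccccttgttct
Nr2e3, chr9:59950030-59950329, minus strand: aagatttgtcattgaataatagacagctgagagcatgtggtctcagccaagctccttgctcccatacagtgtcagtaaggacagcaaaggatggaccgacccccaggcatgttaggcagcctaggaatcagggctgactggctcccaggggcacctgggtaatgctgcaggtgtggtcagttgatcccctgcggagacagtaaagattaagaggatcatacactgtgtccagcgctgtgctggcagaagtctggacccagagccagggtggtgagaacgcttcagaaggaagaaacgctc
Crx, chr7:15879906-15880205, minus strand: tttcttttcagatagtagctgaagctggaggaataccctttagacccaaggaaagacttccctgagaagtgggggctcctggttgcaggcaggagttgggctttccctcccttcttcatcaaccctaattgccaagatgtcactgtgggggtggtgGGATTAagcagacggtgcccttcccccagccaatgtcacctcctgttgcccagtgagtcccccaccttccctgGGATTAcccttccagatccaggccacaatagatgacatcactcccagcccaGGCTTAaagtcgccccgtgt
Sag, chr1:87803430-87803729, plus strand: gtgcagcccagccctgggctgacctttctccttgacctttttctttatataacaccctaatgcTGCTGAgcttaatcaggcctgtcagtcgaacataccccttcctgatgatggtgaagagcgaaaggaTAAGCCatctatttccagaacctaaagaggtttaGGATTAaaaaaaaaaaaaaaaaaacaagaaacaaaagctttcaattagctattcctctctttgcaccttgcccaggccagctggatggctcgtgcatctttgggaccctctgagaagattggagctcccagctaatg

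In the Nrl window TAAGCC begins 56 bases before the start, and no other match was found. The Nr2e3 window held none of the 3 motifs. Crx, which did not pass the test, held TAATCC on the opposite strand at 94 and 21 bases before the start and TAAGCC 30 bases after it, and Sag held all 3 motifs. Over all 32851 promoters of the table, 7.06% held TAATCC, 9.48% TAAGCC and 19.5% TGCTGA. Of the 15 promoters of the 9 factors, 3 held TAATCC (in Otx2, Crx and Thrb), 7 TAAGCC and 4 TGCTGA. The first and second Otx2 windows overlap and hold the same TAAGCC site, so the windows are not independent. By gene, 6 of the 9 factors held TAAGCC. Promoters were found for only 8 of the 13 listed rod target genes, 7 of the 11 cone and 14 of the 20 shared target genes. Of the 8 promoters of rod targets, 4 held TAATCC, 5 TAAGCC and 2 TGCTGA. Of the 9 promoters of cone targets the counts were 1, 3 and 1 in the same order, and of the 16 of shared targets 6, 2 and 5. A match is only a description of these letters.

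The cone factors gave no call. Thrb, the thyroid hormone receptor needed for M cones, had 76.5 and 66.5 CPM in wild-type and 62.3 and 64.3 CPM in Foxn3KO. The higher of the wild-type values came from replicate 1, the library with Xist RNA, and the lower lay just above the Foxn3KO values. The log2 fold change of Thrb was -0.18 (SE 0.063, edgeR adjusted p = 0.0550), at the edge of the threshold. It was -0.07 without wild-type replicate 1 (edgeR adjusted p = 0.380) and -0.28 without wild-type replicate 2 (edgeR adjusted p = 7.44e-06). Thrb did pass with total count scaling (edgeR adjusted p = 0.0330), without the low-count filter (0.0478), with at least 10 counts in every library (0.0441) and with the replicate block (0.0294). Gene counts do not separate the Thrb isoforms, of which TRbeta2 is the form of cones.

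Rxrg, the retinoid X receptor that marks cone precursors and is also found in ganglion cells, had 32.3 and 30.8 CPM in wild-type and 35.0 and 33.0 CPM in Foxn3KO. The Foxn3KO values were slightly higher, opposite to Thrb, by a log2 fold change of 0.11 (SE 0.069, edgeR adjusted p = 0.305). It had the fewest reads of the 9 factors, 739 to 1018 counts per library, and the widest standard error.

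**Figure D2:**
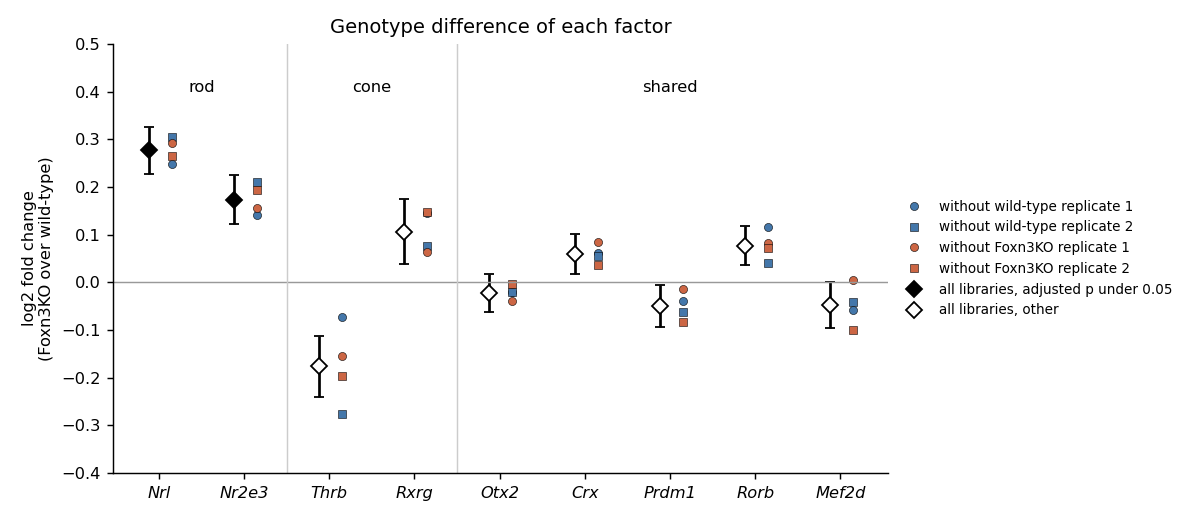
Log2 fold change (Foxn3KO over wild-type) of each factor: diamonds with bars are the edgeR estimate from all libraries ± SE, filled where called, and small symbols are the estimates with 1 library left out. Nrl stays between 0.249 and 0.305 in the latter, while Thrb spans -0.277 to -0.0730.

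Among the shared factors, Otx2 had 460.7 CPM in both wild-type libraries and 459.1 and 448.5 CPM in the Foxn3KO libraries. These values differ little, with a log2 fold change of -0.02 (SE 0.040, edgeR adjusted p = 0.750). Pigment epithelium also expresses Otx2, and its marker genes summed to less in Foxn3KO, as given above. Crx, the homeobox factor downstream of Otx2, had 235.2 and 234.4 CPM in wild-type and 240.6 and 248.8 CPM in Foxn3KO (log2 fold change 0.06, SE 0.042, edgeR adjusted p = 0.354). Prdm1, the zinc finger repressor, had 199.2 and 196.4 CPM in wild-type and 186.5 and 195.8 CPM in Foxn3KO (-0.05, SE 0.044, edgeR adjusted p = 0.475). For Otx2, Crx and Prdm1, the gap between the nearest values of the groups was smaller than the distance between the Foxn3KO replicates.

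Rorb, an orphan nuclear receptor that amacrine and horizontal cells also use, had 568.0 and 539.6 CPM in wild-type and 581.7 and 586.5 CPM in Foxn3KO. Its log2 fold change was 0.08 (SE 0.041, edgeR adjusted p = 0.203) with all libraries. Without wild-type replicate 1 it was 0.12 and called (edgeR adjusted p = 0.000651). Without wild-type replicate 2 it was 0.0402. In both of those fits the spread comes from the closely matched Foxn3KO libraries. Mef2d, a widely expressed factor that Crx recruits to retinal enhancers, had 141.3 and 143.0 CPM in wild-type and 132.6 and 142.7 CPM in Foxn3KO. The upper Foxn3KO value fell between those of wild-type, and the log2 fold change was -0.05 (SE 0.048, edgeR adjusted p = 0.535). These tests did not detect a change in the shared factors, which does not show that they were equal.

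Ratios of factors within a library do not depend on how libraries are scaled, so the rod and cone factors were set against each other and against Crx. The FPKM ratio of Nrl to Thrb was 1.32 and 1.58 in wild-type and 1.99 and 1.97 in Foxn3KO. The means of the log2 ratio differed by 0.45, more than the wild-type SD of 0.183. The lower wild-type ratio came from replicate 1, the library with Xist RNA, in which Thrb was highest. Against Rxrg, the Nrl ratio was 0.972 and 1.06 in wild-type and 1.10 and 1.19 in Foxn3KO, a log2 difference of 0.17 with a wild-type SD of 0.0883. Both Nrl ratios were thus higher in both Foxn3KO libraries, but by different amounts. The ratio of Nr2e3 to Rxrg overlapped between the groups (1.60 and 1.76 in wild-type, 1.73 and 1.79 in Foxn3KO). Relative to Crx, Nrl was at 0.184 and 0.192 in wild-type and 0.220 and 0.217 in Foxn3KO. Nr2e3 was at 0.303 and 0.319 times Crx in wild-type and at 0.346 and 0.327 in Foxn3KO. Thrb was at 0.139 and 0.121 times Crx in wild-type and at 0.111 and 0.110 in Foxn3KO. Such shifts were not particular to the rod factors and Thrb. The ratios of Otx2, Prdm1 and Mef2d to Crx were lower in both Foxn3KO libraries, by log2 differences of -0.08, -0.11 and -0.11. That of Nr2e3 to Crx differed by 0.11. The ratios of Rxrg and Rorb to Crx overlapped between the groups. These ratios are described without a test, and they were chosen knowing earlier results of these data.

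**Figure D3:**
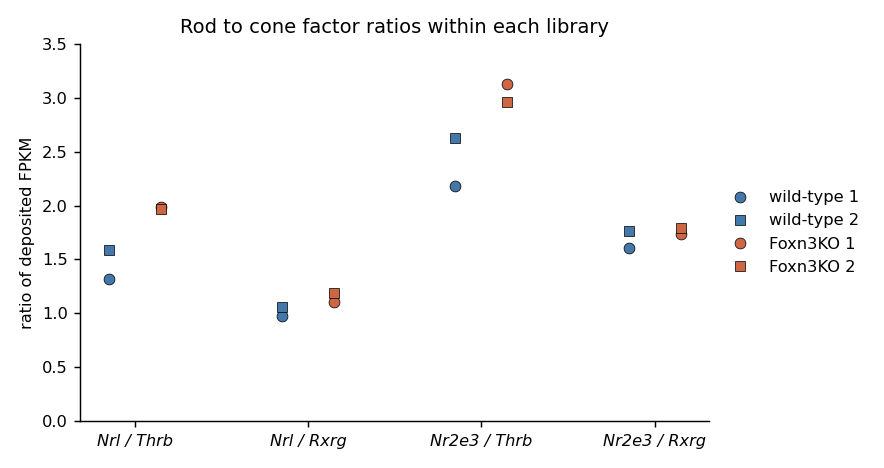
Ratio of deposited FPKM of a rod factor to a cone factor (y axis, from 0) within each library: blue for wild-type, orange for Foxn3KO, circles for replicate 1 and squares for replicate 2. The ratio of Nrl to Thrb is 1.99 and 1.97 in Foxn3KO and 1.32 and 1.58 in wild-type, and the groups overlap for Nr2e3 to Rxrg.

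The targets of the factors were then compared, using lists of 13 rod, 11 cone and 20 shared photoreceptor genes. Of the 10 tested rod targets 7 were called, all higher, with a median log2 fold change of 0.52; without Foxn3KO replicate 1, 5 were called. The other 3, Pde6a, Cnga1 and Slc24a1, had at most 19 counts in any library and were not tested. Of 10 tested cone targets 3 were called, all higher (median 0.10), and of 17 tested shared targets 6 were called, 5 higher and 1 lower (median 0.18). The shared count is unstable: it was 11 (10 higher) without wild-type replicate 1 and 4 (3 higher) without either Foxn3KO library. The cone count was 2 without Foxn3KO replicate 2 and 4, of which 1 lower, without wild-type replicate 2. The lists were not tested against each other. The share called over all genes was 21.9%. Over the 3 lists together 16 of 37 were called, and the count ranged from 12 to 22 when a single library was left out.

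Sag, the rod arrestin gene, had 356 and 430 counts in wild-type and 881 and 664 in Foxn3KO, a log2 fold change of 0.99 (SE 0.082, edgeR adjusted p = 5.46e-08). It was higher in both Foxn3KO libraries and stayed called when any single library was left out. The rod phosphodiesterase genes Pde6b (0.84) and Pde6g (0.41) and the rod endoplasmic reticulum gene Reep6 (0.62) also rose on the log2 scale (largest edgeR adjusted p = 0.00486). Gngt1, the rod transducin gamma subunit, had 230 counts in Foxn3KO replicate 1 and 119 in replicate 2, with 99 and 93 in wild-type. Its log2 fold change was 0.85 (edgeR adjusted p = 0.00353), and 0.52 and not called without Foxn3KO replicate 1 (edgeR adjusted p = 0.131).

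Among cone targets, Gngt2, the cone transducin gamma subunit, rose by 0.46 in log2 units (edgeR adjusted p = 2.25e-06) and Pde6h, the inhibitory subunit of the cone phosphodiesterase, by 0.60 (edgeR adjusted p = 0.000290). Opn1sw, the short-wave cone opsin, had 3125 and 3730 counts in wild-type and 4370 and 3447 in Foxn3KO. It rose by 0.21 (SE 0.050, edgeR adjusted p = 0.00564), a call lost without Foxn3KO replicate 2 (edgeR adjusted p = 0.0757). Gnat2, the cone transducin alpha subunit, had a log2 fold change of -0.09 (edgeR adjusted p = 0.358). Arr3, cone arrestin, had only 24 to 38 counts per library and a log2 fold change of 0.42 (SE 0.312, edgeR adjusted p = 0.376). Opn1mw was not found by that symbol among the genes read, so it was not analysed.

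Shared targets that rose were Rcvrn, the calcium sensor recoverin (log2 fold change 0.91), Tulp1, a ciliary trafficking gene (0.37), the phosducin gene Pdc (0.29), Rbp3, the retinoid carrier of the space around photoreceptors (0.19), and Unc119 (0.17), with a largest edgeR adjusted p of 0.0158. Rcvrn had 54 and 62 counts in wild-type and 120 and 96 in Foxn3KO. The calls of Rbp3 and Unc119 were lost without either Foxn3KO library (edgeR adjusted p from 0.0758 to 0.199). Crb1, a polarity gene, fell by 0.52 in log2 units (edgeR adjusted p = 0.00343). Its wild-type counts were 1467 and 2439, and its log2 fold change was -0.19 without wild-type replicate 2 and -0.79 without replicate 1. In DESeq2 Crb1 was not called (adjusted p = 0.258).

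**Figure D4:**
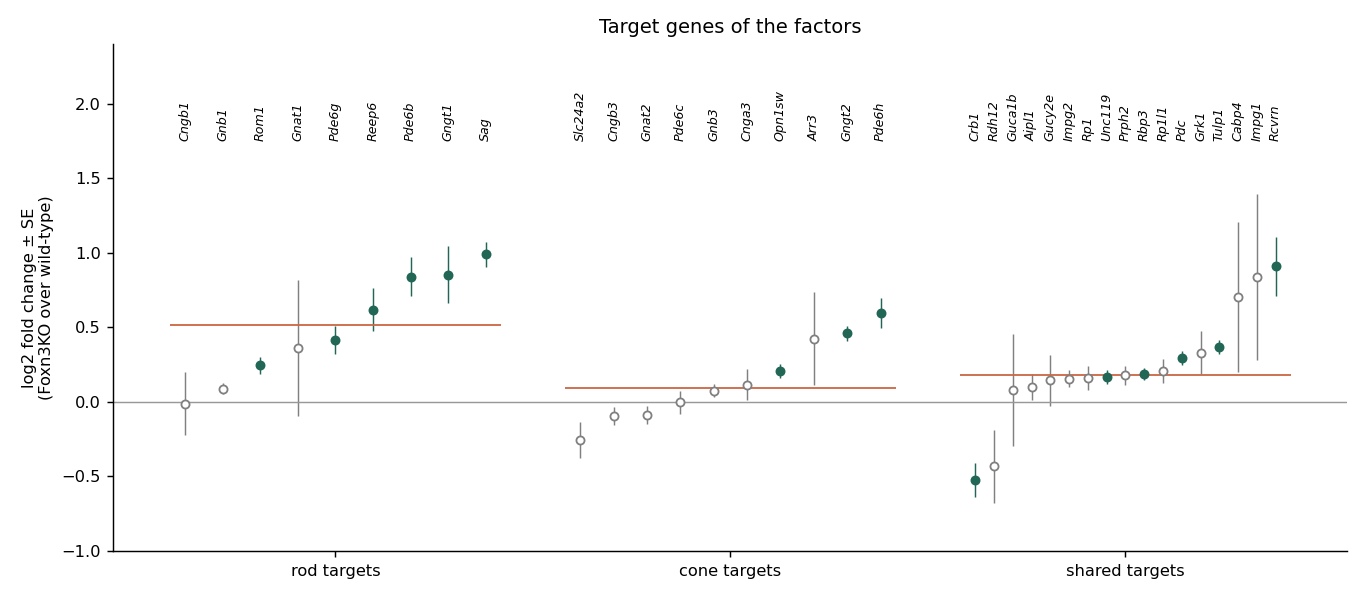
Log2 fold change ± SE (Foxn3KO over wild-type) of the tested rod (9 of 10 shown), cone and shared target genes, ordered by value within each list: filled green symbols are called by edgeR, open grey ones are not, and the orange line is the list's median. The medians are 0.52, 0.10 and 0.18.

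Other factors that act on the photoreceptor decision went both ways. Of 23 such genes, all tested, 8 were called, 3 higher and 5 lower, beside 21.9% of all genes; DESeq2 called 4, and the count was 3 without either Foxn3KO library. Neurod1, a bHLH factor of photoreceptor precursors, had a log2 fold change of 0.04 (SE 0.041, edgeR adjusted p = 0.538). Hes1, the Notch effector that holds cells in the progenitor state, fell by 0.21 (edgeR adjusted p = 0.00247; 0.0570 without Foxn3KO replicate 2). Olig2, expressed in progenitors that give rise to cones and horizontal cells, fell by 0.23 (edgeR adjusted p = 0.00966). Onecut1, which promotes the cone and horizontal fates and activates Thrb, had 297 and 292 counts in wild-type and 199 and 207 in Foxn3KO. It fell by 0.51 (SE 0.139, edgeR adjusted p = 0.0131), and was -0.30 and not called without Foxn3KO replicate 1 (edgeR adjusted p = 0.249). In DESeq2 neither Olig2 (adjusted p = 0.0510) nor Onecut1 (0.0517) passed.

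Onecut2, a paralog of Onecut1, and Pou2f1, a regulator of cone birth, were the other factors called lower, both by less than Hes1 and both not called without either Foxn3KO library or in DESeq2. Samd11, a photoreceptor Polycomb component that Crx controls, rose by 0.27 (edgeR adjusted p = 0.00267), Pou2f2, a paralog of Pou2f1, by 0.27 (edgeR adjusted p = 0.00758) and the histone demethylase gene Kdm1a by 0.15 (edgeR adjusted p = 0.0200). The call of Pou2f2 was lost without Foxn3KO replicate 2 (0.18, edgeR adjusted p = 0.204), that of Olig2 without Foxn3KO replicate 1 (-0.20, edgeR adjusted p = 0.148), and that of Kdm1a without either Foxn3KO library. Summed over the 10 progenitor markers, wild-type libraries had 7276 and 7442 CPM and Foxn3KO libraries 6784 and 6786 CPM, a sum that includes Hes1 and is carried mostly by Ccnd1 (3627 CPM on average in wild-type and 3194 in Foxn3KO). Of the 10 markers 3 were called lower (Hes1, Ccnd1 and Fgf15) and 1 higher (Sox2, 0.17), and the median log2 fold change was -0.06. The part of progenitor content in the result was not tested.

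Thrb, Rxrg and Rorb are receptors, so genes that make, clear or carry thyroid hormone and retinoic acid were compared as well. Of 24 listed genes 22 were tested and 6 called, 2 higher and 4 lower, beside 21.9% of all genes. The count rose to 10 without wild-type replicate 1. Thra, the other thyroid hormone receptor gene, had a log2 fold change of -0.07 (edgeR adjusted p = 0.301; 0.0127 without wild-type replicate 1). Crym, a thyroid hormone binding protein of the cytosol, had 3864 and 4158 counts in wild-type and 7248 and 5447 in Foxn3KO. It rose 1.59-fold, a log2 fold change of 0.67 (SE 0.043, edgeR adjusted p = 1.57e-09).

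On the retinoid side, Aldh1a3, which makes retinoic acid, fell by 0.53 in log2 units (edgeR adjusted p = 5.44e-06) and Cyp26a1, which breaks it down, fell by 0.59 (edgeR adjusted p = 3.39e-07). Aldh1a1, the dorsal enzyme of retinoic acid synthesis, had 2791 and 1937 counts in wild-type and 4260 and 3162 in Foxn3KO. Its log2 fold change of 0.65 (edgeR adjusted p = 0.000842) became 1.01 without wild-type replicate 1 and 0.36 without replicate 2, and DESeq2 did not call it (adjusted p = 0.180). Ncoa2, a nuclear receptor coactivator, fell by 0.14 (edgeR adjusted p = 0.0343), a call lost without either Foxn3KO library and in DESeq2 (adjusted p = 0.103). Dio2 and Dio3, the enzymes that activate and inactivate thyroid hormone, were not called (log2 fold changes -0.08 and 0.12, edgeR adjusted p = 0.952 and 0.384).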

How the data were processed

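The 4 libraries came from the retinas of single embryos and, per the labels' protocols, were prepared as stranded libraries whose adaptors carry molecular identifiers. The authors deposited raw read counts per gene and library, with FPKM values, a mean normalized signal, and the log2 fold changes, standard errors, p-values and adjusted p-values of their own comparison. The build mm39 and DESeq2 are named in the submitters' processing notes; the aligner, the counting tool, the use of strand and the removal of duplicates are not given in the sources used here, so RNA of antisense genes such as Otx2os1 cannot be told apart from that of the gene itself. Here 18471 genes were read, 17300 passed filterByExpr, and TMM scaling preceded edgeR's quasi-likelihood test (edgeR 4.0.16, R 4.3.3; genotype as the only term, all 4 libraries, two-sided, Benjamini-Hochberg over all tested genes, threshold 0.05). CPM uses TMM-adjusted library sizes, and each SE is the fold change divided by the root of F. FPKM was used only for levels between genes and for ratios. The procedure was tested on simulated data.

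Alternatives were DESeq2 1.42.0, limma-voom (limma 3.58.1), edgeR's earlier fit, a replicate block, RLE or total count scaling, testing without a filter or only genes with 10 or more counts per library, and omitting single libraries. In the last case 1 library remains in a group and is assumed to vary like the pair in the other. The labels call the embryos separate, and p-values measure only the spread between these libraries. Named whatever their values were the 9 factors, Foxn3, Neurod1, Opn1sw, Opn1mw, Arr3, Gnat2, Sag, Rcvrn and Thra. Up to 6 called genes of each list with the smallest p were named as well. Xist and Ddx3y describe the library that stands apart. Genes outside this rule (Pde6a, Cnga1, Slc24a1, Ccnd1, Fgf15, Sox2, Onecut2, Pou2f1, Dio2 and Dio3) were named after their values were seen. Some genes of the lists are counted in them but not reported here. The factors and lists were chosen with earlier results of these data known. Motif counts used RefSeq promoters of GRCm38.p6. Figures were drawn with matplotlib 3.10.9.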

Additional observations from a re-analysis of the deposited data

How the results depend on the processing

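Across settings other than leaving out a library, the 9 factors kept their direction. Nrl stayed called in all of them, Nr2e3 in all but DESeq2, and Thrb passed in 4, as given above. DESeq2 called fewer genes than edgeR: 2437 against 3795 of all tested genes, 1 of the 9 factors and 4 of the 23 other fate regulators; the cause was not tested. Of the other named genes' results under these settings, 331 kept their side of the threshold and 13 were lost, 9 of them in DESeq2.

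Leaving out each library in turn gave 2336 to 5097 called genes, 1 to 3 of the 9 factors, 3 to 10 fate regulators, 5 to 10 thyroid and retinoid genes and 12 to 22 targets. The low values are those without a Foxn3KO library and the high ones those without a wild-type library. Mef2d changed sign, from -0.0994 to 0.00484, the latter without Foxn3KO replicate 1. The other 8 factors kept their direction.

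Over 17300 genes the differences between replicates in the 2 groups had a correlation of -0.00825. With a single difference in each group, this cannot show whether the replicate numbers pair the embryos. With the replicate block 4222 genes and 3 factors were called (Nrl, Nr2e3 and Thrb). The rod to cone ratios computed from CPM over gene length gave the same differences, 0.45 for Nrl to Thrb and 0.17 for Nrl to Rxrg. This had to be so, because library scaling and gene length cancel in these differences, and it is not a further check. A limit of 3 counts corresponds to 0.102 to 0.133 CPM and covers counting error only; depth limits the targets with few reads, such as Arr3 and Rcvrn, more than the 9 factors.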

Other observations

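Paralogs of the factors, which are expressed in other retinal or eye cells, were looked at beside them. Of 15 paralogs and related genes, all tested, 7 were called by edgeR, 4 higher and 3 lower, beside 21.9% of all genes. DESeq2 called 5 of them, and edgeR 4 (3 higher, 1 lower) without Foxn3KO replicate 2. Nr2f2, a patterning receptor of the same subfamily as Nr2e3, rose by 0.46 in log2 units (edgeR adjusted p = 5.65e-06). Otx1, the paralog of Otx2, had 32 and 30 counts in wild-type and 79 and 66 in Foxn3KO, a log2 fold change of 1.24 (SE 0.255, edgeR adjusted p = 0.00180). Prdm8, a relative of Prdm1 used by bipolar and amacrine cells, rose by 0.35 (edgeR adjusted p = 0.00223). Prdm16 fell by 0.86 (edgeR adjusted p = 0.00467), from 101 and 129 counts in wild-type to 77 and 49. Rora, the paralog of Rorb, fell by 0.22 (edgeR adjusted p = 0.00517; 0.113 without Foxn3KO replicate 2). Nr2e1, the progenitor receptor next of kin to Nr2e3, fell by 0.14 (edgeR adjusted p = 0.0318), a call lost without either Foxn3KO library and in DESeq2 (adjusted p = 0.0801).

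Prdm1 holds back the bipolar fate, so 12 bipolar genes were compared. In RNA from whole retina, changes of these genes cannot be assigned to bipolar cells. The table held 9 of the 12 genes, and 5 were called by edgeR, 3 higher and 2 lower, beside 21.9% of all genes. DESeq2 called 2, beside 14.1% of all genes, and edgeR 1 without Foxn3KO replicate 2. Isl1, which ganglion cells also express, fell by 0.23 in log2 units (edgeR adjusted p = 0.00245; 0.0548 without Foxn3KO replicate 1) and Lhx4 fell by 0.27 (edgeR adjusted p = 0.0192). Bhlhe22 rose by 0.21 (edgeR adjusted p = 0.00903) and Fezf2 by 0.17 (edgeR adjusted p = 0.0409). Trpm1, which pigment cells also express, had 150 and 275 counts in wild-type and 320 and 265 in Foxn3KO. Its log2 fold change of 0.49 (edgeR adjusted p = 0.0466) was 0.17 without wild-type replicate 1 and 0.91 without replicate 2. Without Foxn3KO replicate 2, edgeR no longer called Bhlhe22 (adjusted p = 0.164), Lhx4 (0.278), Fezf2 (0.415) or Trpm1 (0.0557). Of these 5 genes, DESeq2 did not call Lhx4 (adjusted p = 0.0921), Fezf2 (0.146) or Trpm1 (0.429).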
